A study of Mus musculus with 17 samples.

Results

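The genes followed here make up the signalling axis that carries cAMP and calcium signals to CREB in neurons. Its 9 genes were taken by symbol from the 55471 genes of the deposited count table, and all 9 were found. They encode the transcription factors Creb1, Crem and Atf1, the CREB-regulated coactivators Crtc1, Crtc2 and Crtc3, and the salt-inducible kinases Sik1, Sik2 and Sik3. The rule that took them used the symbol alone.

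The hippocampus of C57BL/6 mice aged 3 to 6 months was profiled by RNA-seq in 17 libraries, each from 1 animal. CBP-ifKO mice carried floxed Crebbp, which encodes the lysine acetyltransferase CBP, and a tamoxifen-inducible creERT2 driven by the Camk2a promoter, so that recombination is limited to forebrain excitatory neurons and other cells of the tissue keep CBP. Per the methods, controls were littermates without creERT2, and every group, controls included, received tamoxifen. The labels name the Camk2a creERT2 line for controls too. Kindling was by repeated injection of the convulsant pentylenetetrazole (PTZ) at 45 mg/kg. Per the paper, every control came to have seizures over this course, while no CBP-ifKO reached the stage of progressive seizures. Here, kindling thus names the course of injections, and genotypes compared after it also differed in seizures. The Sal groups had no kindling and a saline injection, the PTZ0 groups had kindling and a final saline injection, and the PTZ45 groups had kindling and a final injection of PTZ at 45 mg/kg. In the PTZ0 and PTZ45 groups the final injection came a week after the course, per the paper. Tissue was taken 45 min after the final injection. There were 2 libraries for Control PTZ45 and 3 for every other group. The questions were how the axis responds to PTZ and to kindling in each genotype, and how it differs without neuronal CBP.

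As background, protein kinase A and calcium-dependent kinases phosphorylate CREB, and phosphorylated CREB recruits CBP to the cAMP response element (CRE) of its target genes. The Crtc proteins are a second arm of this response. They are held in the cytoplasm after phosphorylation by salt-inducible kinases, enter the nucleus when calcineurin dephosphorylates them, and there bind the bZIP domain of CREB. Sik1 and Crem are themselves CREB targets: Sik1 protein acts against the coactivators, and an internal promoter of Crem gives the short repressor ICER, which these counts per gene cannot tell apart from the longer Crem forms. Because whole hippocampus was sequenced, fewer cells of a type and less RNA per cell cannot be told apart.

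The libraries held 5831992 to 18735643 counts. Crebbp was lower in CBP-ifKO than in Control over all treatments (log2 fold change -0.84, SE 0.06, adjusted p = 3.41e-41, DESeq2), without overlap of the genotypes in any treatment, and Esr1, part of which is in the creERT2 transgene, was higher by 3.81 on the log2 scale. Esr1 had 41.0 to 77.8 normalized counts in the Control libraries and 703 to 941 in those of CBP-ifKO. By Esr1, the controls are as the methods describe them, not as the labels do. Markers of dentate granule cells, pyramidal cells, interneurons and glia were present in all 17 libraries. In 5 libraries, 1 in each group except Control PTZ45, the summed choroid plexus markers were 10757 to 44063 normalized counts, against 411 to 1103 in the other 12. These were Control Sal replicate 2, CBP-ifKO Sal replicate 1, Control PTZ0 replicate 2, CBP-ifKO PTZ0 replicate 3 and CBP-ifKO PTZ45 replicate 2. Some, not all, of the counts of members and listed genes are also given without all 5. Control Sal and Control PTZ0 were run in lane 3, Control PTZ45 and CBP-ifKO Sal in lane 4, and CBP-ifKO PTZ0 and PTZ45 in lane 5. Lane and group can therefore not be told apart except in Control PTZ0 against Sal and CBP-ifKO PTZ45 against PTZ0.

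CRE sequences link the axis to the genes that it acts on, and those of the targets named here are shown with those of members. The window read was the 250 bases before each RefSeq start (GRCm38.p6), searched on both strands for the CRE core TGACG, whose reverse complement is CGTCA. Of the 9 members, 6 matched an entry (Creb1, Atf1, Crtc1, Crtc3, Sik2 and Sik3), and 2 of these held the core, Atf1 once and Sik3 at 3 places. In the list of 18 CREB targets used below, 15 genes matched with 23 starts, and 14 of these starts (60.9%) held the core. Among all 32851 starts of the table, 17.8% held the core and 1.55% the full palindrome TGACGTCA, which contains the core on both strands. The runs below are 5′ to 3′ on the gene's strand, positions are counted back from the start, capitals mark each complete core, and the core nearest the start is shown. A match is a description of letters, not of a bound site. The targets were listed as genes known to answer to CREB, so their share of starts with the core is not independent evidence.
Atf1, chr15:100227757-100227786, plus strand, -102 to -73: gtgaccacgcggTGACGcagcacgccggcg
Sik3, chr9:46012751-46012780, plus strand, -69 to -40: cgcctcccggagTGACGtctgtcggcaacc
Fos, chr12:85473796-85473856, plus strand, -94 to -34: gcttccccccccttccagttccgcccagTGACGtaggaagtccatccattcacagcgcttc
Fosb, chr7:19310073-19310133, minus strand, -88 to -28: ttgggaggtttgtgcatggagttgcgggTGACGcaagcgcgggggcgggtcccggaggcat
Junb, chr8:84978822-84978882, minus strand, -134 to -74: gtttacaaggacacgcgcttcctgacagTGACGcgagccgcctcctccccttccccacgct
Nr4a1, chr15:101266778-101266838, plus strand, -68 to -8: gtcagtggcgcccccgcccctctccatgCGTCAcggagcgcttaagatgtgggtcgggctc
Dusp1, chr17:26508580-26508640, minus strand, -168 to -108: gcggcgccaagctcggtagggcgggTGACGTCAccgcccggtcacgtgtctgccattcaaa
Dusp1 was the only gene among these 7 whose printed run held the full palindrome.

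In the hippocampus of Control Sal mice, the members differed in level. Per kb of exon, Sik3 had 138 ± 17.8 normalized counts (SD, n = 3), Crtc1 99.5 ± 19.9 and Creb1 95.9 ± 3.49. Crtc1 and Creb1 differed by less than the spread of Crtc1. The other members followed at lower levels, with Crtc2 at 36.9 ± 2.71, Sik2 at 33.3 ± 2.17, Atf1 at 28.4 ± 3.49, Crtc3 at 27.7 ± 3.13, Crem at 25.5 ± 0.896 and Sik1 at 22.1 ± 2.05. Atf1 and Crtc3 differed by less than their spread, and Crtc3 and Crem by less than the spread of Crtc3. Sik3 was first and Sik1 last also when the length of the longest transcript was used, whereas the order between them changed (Creb1 then ranked 2 and Crem 6).

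Sik1 was the member that rose after PTZ in controls, and its level in PTZ45 was lower in CBP-ifKO than in Control. Crem had higher values after PTZ in controls but did not pass the main test. Crtc2 was slightly higher in CBP-ifKO over all treatments. DESeq2 made no call for Creb1, Atf1, Crtc1, Crtc3, Sik2 or Sik3 in any of the 12 comparisons with all libraries in the fit.

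**Figure D1:**
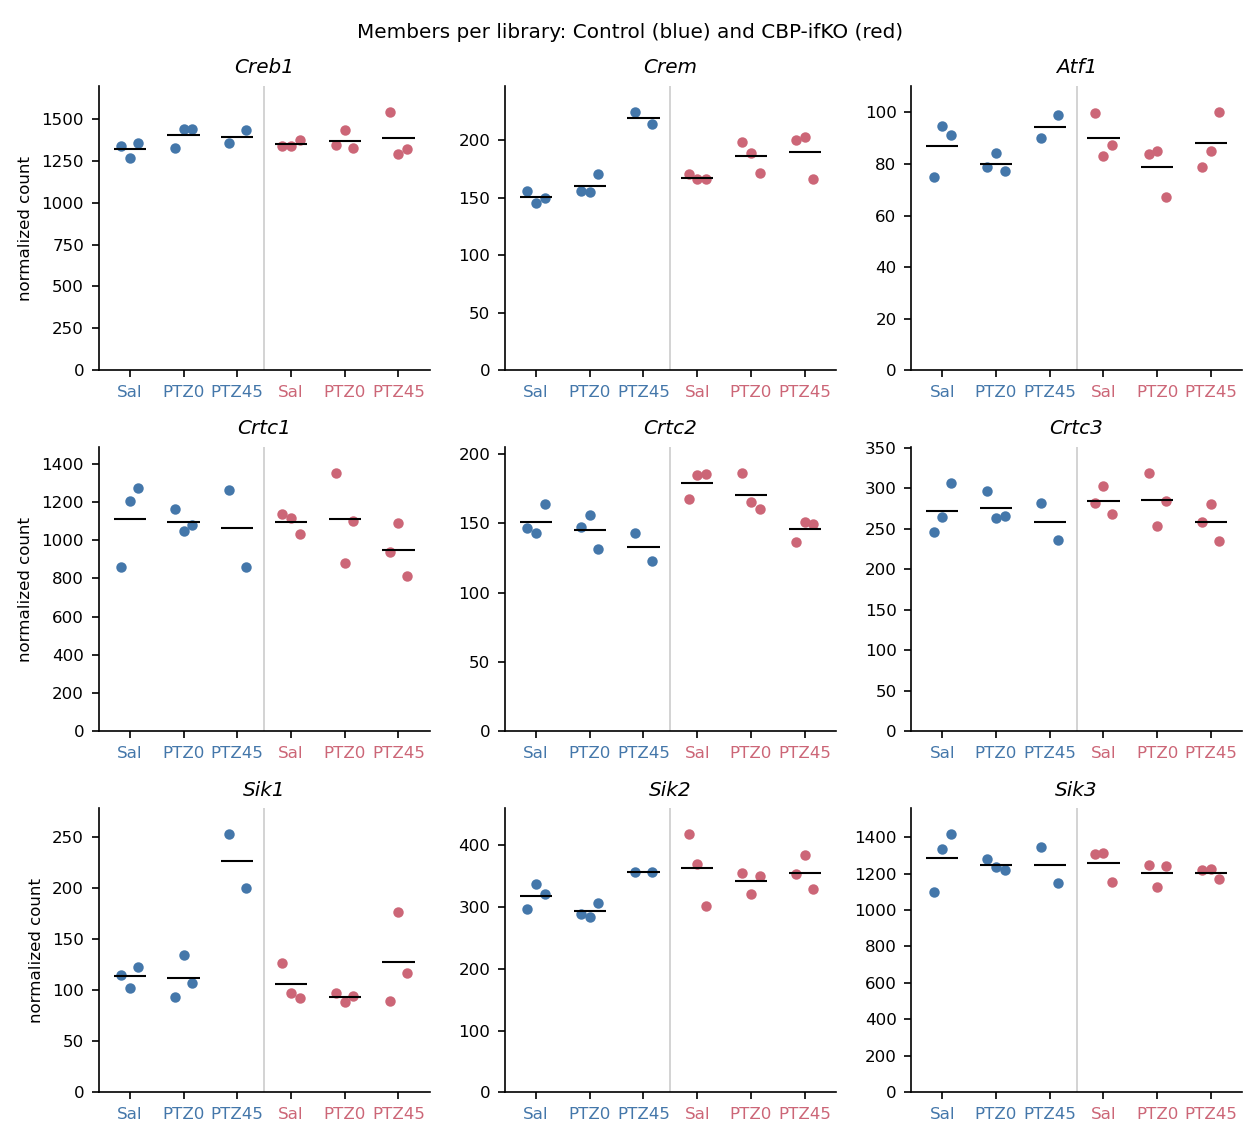
Normalized counts (y axis, from 0) of the 9 members in each library, by treatment, with Control in blue, CBP-ifKO in red and a line at the group mean. The 2 Control PTZ45 libraries are the highest for Sik1 and for Crem, while Creb1 stays between 1263 and 1540.3 in all 17 libraries.

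Sik1 (chromosome 17, 31844250 to 31855804, minus strand, GRCm38) varied most, with a coefficient of variation of 36.6% over the 17 libraries against 5.03% for Creb1. In Control Sal, its normalized counts were 115, 102 and 123, and in Control PTZ0 they were 93.0, 135 and 107. In Control PTZ45 they were 253 and 199.9. Both PTZ45 libraries lay above every other Control library, and the Sal and PTZ0 groups overlapped. In CBP-ifKO, the Sal values were 127, 97.5 and 92.4 and the PTZ0 values 97.4, 88.8 and 94.6. The CBP-ifKO PTZ45 values were 89.4, 177 and 117. Of these 3 libraries, replicate 2 was above every other CBP-ifKO library, replicate 3 was within the range of the Sal group, and replicate 1 was below that range.

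In controls, Sik1 rose in PTZ45 over Sal by 0.99 on the log2 scale (SE 0.20, adjusted p = 0.00012), which is 1.99-fold. It rose over PTZ0 by 1.03 (SE 0.21, adjusted p = 9.74e-05), and both comparisons share the PTZ45 libraries. Without Control PTZ45 replicate 1, the rise over Sal was 0.81 with an adjusted p of 0.216. Over PTZ0, Sik1 had no adjusted p without that library. With a GC correction, which removes the trend of each library over exonic GC content, Sik1 kept the call (1.12 over Sal). In CBP-ifKO, the difference between PTZ45 and Sal was 0.26 (SE 0.25, 95% interval -0.22 to 0.75, adjusted p = 0.999898). Over PTZ0 it was 0.45 (SE 0.24, 95% interval -0.01 to 0.92). Without CBP-ifKO PTZ45 replicate 2, these differences of Sik1 were -0.05 and 0.13.

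Between genotypes, Sik1 was lower in CBP-ifKO than in Control in PTZ45 by 0.82 on the log2 scale (log2 fold change -0.82, SE 0.25, adjusted p = 0.0364), and the groups did not overlap. This call was close to the threshold. It was lost in edgeR (adjusted p = 0.058) and without any one of Control PTZ45 replicates 1 and 2 and CBP-ifKO PTZ45 replicates 1 and 3, where Sik1 was lower by 0.62 to 0.98. Without CBP-ifKO PTZ45 replicate 2 the log2 fold change of Sik1 was -1.14 (adjusted p = 0.00225). In Sal it was -0.10 (SE 0.21, adjusted p = 0.953) and in PTZ0 -0.24 (SE 0.20, adjusted p = 0.613), with overlap in both.

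The difference between genotypes in the response to PTZ was tested by an interaction term. For Sik1 it was -0.73 over Sal (SE 0.32, 95% interval -1.36 to -0.10, adjusted p = 0.999981) and -0.58 over PTZ0 (SE 0.32, adjusted p = 0.999952). A different response of Sik1 in CBP-ifKO was thus not called. Over all treatments, with the treatment as a term, Sik1 was lower in CBP-ifKO (log2 fold change -0.37, SE 0.14, adjusted p = 0.0367), a call that did not hold in edgeR (adjusted p = 0.0514) or with the GC correction (adjusted p = 0.0688). It was also lost without any one of Control Sal replicate 3, CBP-ifKO Sal replicate 3, Control PTZ0 replicate 2, Control PTZ45 replicates 1 and 2, and CBP-ifKO PTZ45 replicates 1 and 3, where the log2 fold change of Sik1 was -0.38 to -0.27. With the 5 choroid plexus libraries left out, Sik1 was called at -0.55 (adjusted p = 0.00588), and its calls in Control PTZ45 over Sal (0.93) and over PTZ0 (1.18) were kept.

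Sik2 and Sik3 encode the remaining salt-inducible kinases. The normalized counts of Sik2 ranged from 283 to 418. Its means in controls were 318 ± 20.7 in Sal, 293 ± 12.1 in PTZ0 and 356 ± 0.0155 in PTZ45 (SD, n = 3, 3 and 2), and the 2 PTZ45 values lay above every other Control value. The difference from PTZ0 was 0.28 on the log2 scale (SE 0.14, adjusted p = 0.554) and did not pass the adjustment. In CBP-ifKO, Sik2 had means of 363 ± 58.7 in Sal, 341 ± 18.1 in PTZ0 and 355 ± 28.1 in PTZ45. Over all treatments its genotype difference was 0.15 (SE 0.07, adjusted p = 0.126), and 0.18 without CBP-ifKO Sal replicate 3, where it was called (adjusted p = 0.0276). On the opposite strand, 15% of the exonic bases of Sik2 overlap exons of Ppp2r1b, and whether the counting used strand is not stated. Sik3 ranged from 1097 to 1418 normalized counts, and its group means lay between 1203 and 1283.

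Crem (chromosome 18, 3266048 to 3337748, minus strand) encodes the cAMP response element modulator. Its normalized counts in Control Sal were 156, 145 and 150.1, in Control PTZ0 156, 155 and 170.4, and in Control PTZ45 225 and 214. In CBP-ifKO Sal they were 170.4, 166 and 166, in PTZ0 198, 189 and 171, and in PTZ45 199.8, 203 and 166. In controls the PTZ45 libraries were above all others, while in CBP-ifKO the PTZ45 libraries overlapped both other groups.

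In controls, the log2 difference of Crem in PTZ45 was 0.54 over Sal (SE 0.18, adjusted p = 0.145) and 0.45 over PTZ0 (SE 0.17, adjusted p = 0.301), so DESeq2 made no call. For the difference over Sal, edgeR gave an adjusted p of 0.0359 and 1 DESeq2 fit of all 17 libraries 0.0202, and both called Crem. In CBP-ifKO, the difference was 0.18 over Sal (SE 0.17, adjusted p = 0.999898) and 0.03 over PTZ0 (SE 0.16). The interaction for Crem was -0.36 over Sal (SE 0.22, 95% interval -0.80 to 0.07) and -0.42 over PTZ0 (SE 0.21, 95% interval -0.83 to 0.0046), neither called.

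Values of several members moved with a technical measure. Over the 17 libraries, the log2 deviation of Crem had a Pearson correlation of -0.732 with the slope of each library's counts over GC content, which is a description of libraries that also differ in group and lane. The same correlation was -0.514 for Sik2, -0.508 for Creb1, 0.494 for Crtc2, 0.475 for Crtc1, 0.442 for Crtc3, -0.341 for Sik1, 0.312 for Sik3 and -0.0789 for Atf1. With the GC correction the difference of Crem in controls was 0.45 over Sal (adjusted p = 0.792). An unnamed gene model on the opposite strand, Gm6225, shares 8.01% of the exonic bases of Crem. In each treatment without PTZ on the last day, every CBP-ifKO value of Crem was above every Control value (differences of 0.15 in Sal and 0.21 in PTZ0), and in PTZ45 every CBP-ifKO value was below (-0.21), with no call in any of the 3.

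Creb1, the main CREB gene in neurons, was the steadiest member, ranging from 1263 to 1540.3 normalized counts. Its genotype difference over all treatments was -0.0038 on the log2 scale (95% interval -0.08 to 0.07). Its difference between PTZ45 and Sal was 0.08 in controls (SE 0.09) and 0.03 in CBP-ifKO (SE 0.10). Atf1, a close relative of CREB, was counted at 67.0 to 100.2, with group means of 78.7 to 94.5, and its differences between PTZ45 and Sal were 0.12 (SE 0.25) in controls and -0.05 (SE 0.23) in CBP-ifKO. The 95% interval of Atf1 in controls, -0.36 to 0.61, includes the difference of 0.54 measured for Crem, so that a change of that size in Atf1 is within its error.

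Among the coactivators, Crtc2 differed by genotype. Its normalized counts in Sal were 146, 143 and 164 in Control and 167, 185 and 185 in CBP-ifKO. In PTZ0 they were 147, 156 and 131 in Control and 186, 165 and 160.1 in CBP-ifKO. In PTZ45 they were 143 and 123 in Control and 137, 151 and 149.7 in CBP-ifKO. The genotypes did not overlap in Sal and PTZ0 and overlapped in PTZ45. Over all treatments, Crtc2 was 1.15-fold higher in CBP-ifKO (log2 fold change 0.20, SE 0.08, adjusted p = 0.0399), and within each treatment the log2 difference was 0.24, 0.23 and 0.13, none called. The call was lost without any one of 9 libraries: Control Sal replicates 1 and 2, CBP-ifKO Sal replicates 2 and 3, Control PTZ0 replicates 1 and 3, CBP-ifKO PTZ0 replicate 1, Control PTZ45 replicate 2 and CBP-ifKO PTZ45 replicate 2. It was lost too without the 5 choroid plexus libraries (0.23, adjusted p = 0.129). Over all alternatives the difference of Crtc2 was 0.18 to 0.24, with adjusted p-values of 0.0102 to 0.129.

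Within CBP-ifKO, the 3 PTZ45 values of Crtc2 lay below every Sal and PTZ0 value (log2 difference -0.29 from Sal, SE 0.17, and -0.22 from PTZ0, SE 0.17), again without a call. Crtc1, the coactivator enriched in brain, spread widely within groups, from 859 to 1273 in Control Sal and from 858 to 1264 in Control PTZ45. Its difference between Control PTZ45 and PTZ0 was -0.05 (SE 0.21), and without Control PTZ45 replicate 1 it was -0.35 and called (adjusted p = 0.037). Crtc3 ranged from 235 to 319, with group means of 258 to 286. Within groups, Crtc1, Crtc3 and Sik3 deviated together over the 17 libraries (Pearson r of 0.912 for Crtc1 with Crtc3, 0.866 for Crtc1 with Sik3 and 0.816 for Crtc3 with Sik3). These libraries share depth and GC trends, and the part of either in that pattern was not tested.

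**Figure D2:**
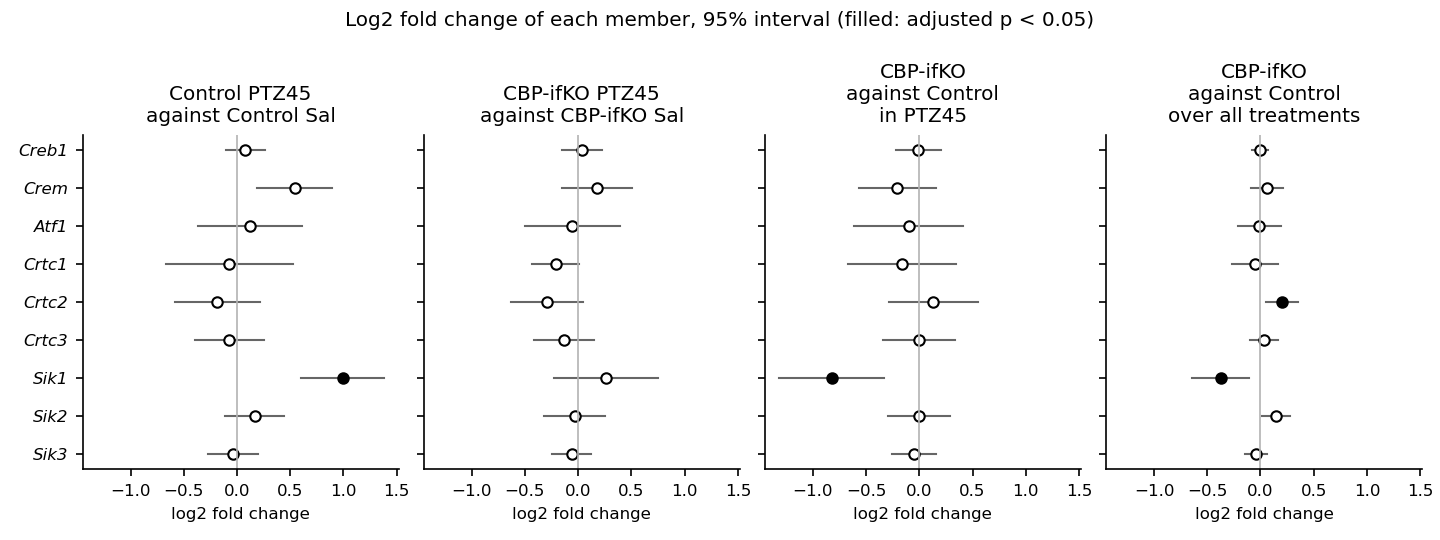
Log2 fold change (x axis) with its 95% interval for each member in 4 comparisons, filled where the adjusted p of DESeq2 was under 0.05. Sik1 is filled in 3 of the 4 panels and Crtc2 in 1, and no other member is filled.

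The members' counts were set against the share of all genes called. In Control PTZ45 against Sal, 1 of 9 members was called (Sik1), where 1.17% of all genes were called. With edgeR, 2 were called (Sik1 and Crem), against 1.16% of genes. The groups did not overlap for 4 members, all higher, where 16.7% of genes did so in that direction. In Control PTZ45 against PTZ0, 1 of 9 was called, against 1.25% of all genes, and again 4 members were higher without overlap (17.6% of genes). In CBP-ifKO PTZ45 against Sal, 0 of 9 members were called by DESeq2 or edgeR, 0 had an unadjusted p under 0.05, and 0.294% of all genes were called. For CBP-ifKO PTZ45 against PTZ0 these counts were also 0 of 9, with 0.0872% of genes called. In each of these 2 comparisons 1 member, Crtc2, did not overlap and was lower, where 6.16% and 5.6% of genes were.

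A week after the kindling course, the members were without a call. In PTZ0 against Sal, 0 of 9 members were called in Control and 0 of 9 in CBP-ifKO, by DESeq2 or edgeR, and 0 had an unadjusted p under 0.05 in either. Over all genes, DESeq2 called 0.00843% and 0.0112%. In CBP-ifKO, the PTZ0 values of Crem lay above the Sal values, as did those of 3% of genes.

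By genotype, 0 of 9 members were called in Sal, where 2.04% of all genes were, and 0 of 9 in PTZ0, where 6.68% were. Both tools made no call there, and no member had an unadjusted p under 0.05. Values without overlap were higher in CBP-ifKO for 2 members in Sal (Crem and Crtc2, 10.1% of genes) and for 3 in PTZ0 (Crem, Crtc2 and Sik2, 13.6% of genes). In PTZ45, 1 of 9 members was called, Sik1, against 3.07% of genes, and 2 were lower without overlap, Sik1 and Crem, against 18.3% of genes. Over all treatments 2 of 9 were called, against 19.3% of genes, so that the share of members called was near the background. For the interactions, DESeq2 and edgeR called 0 of 9 members over Sal (0.329% of genes by DESeq2), 1 of which, Sik1, had an unadjusted p under 0.05, and 0 of 9 over PTZ0 (0.423% of genes), with none under 0.05. The median log2 difference of the members was 0.08 in Control PTZ45 against Sal and -0.0038 by genotype over all treatments, beside 0.0056 and 0.0098 over all genes tested.

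Genes known as CREB targets are next in the pathway. Of 18 listed targets, 12 were called higher and 0 lower in Control PTZ45 against Sal, with a median log2 difference of 1.21, where 0.939% of all genes were called higher. The examples are the immediate early genes Fos (6.08, SE 0.48) and Fosb (6.00, SE 0.44), the nuclear receptor Nr4a1 (2.89, SE 0.29) and the phosphatase Dusp1 (2.84, SE 0.17). Fos went from 39.6 ± 19.7 normalized counts in Control Sal to 2699 ± 306 in Control PTZ45. Against PTZ0, 12 targets were called higher too, where 1.25% of all genes were called in either direction, with Fos at 6.68 (SE 0.19) and Fosb at 6.45 (SE 0.21).

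In CBP-ifKO, 5 of the 18 targets were called higher in PTZ45 against Sal, with a median of 0.19, where 0.086% of all genes were called higher. Fos rose there by 2.91 (SE 0.26), Dusp1 by 1.45 (SE 0.23), Fosb by 1.42 (SE 0.37) and Nr4a1 by 0.82 (SE 0.17). The level of Fos was 31.4 ± 3.88 normalized counts in CBP-ifKO Sal and 234 ± 64.0 in CBP-ifKO PTZ45. Against PTZ0, in the same lane, 5 targets were called higher too, with a median of 0.24. There, 0.0872% of all genes were called in either direction. Fos rose over PTZ0 by 4.03 (SE 0.30), Dusp1 by 1.70 (SE 0.22), Nr4a1 by 1.21 (SE 0.16) and Egr1 by 0.98 (SE 0.13). The count against PTZ0 was 4 to 8 under every alternative. That of 5 against Sal depended on the libraries and the tool. It was 3 without any one of CBP-ifKO Sal replicate 1 and CBP-ifKO PTZ45 replicates 2 and 3, 2 without all 5 choroid plexus libraries, and 1 with edgeR, whereas the count in controls was 10 to 13 under every alternative.

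The interaction over Sal was called for 9 of the 18 targets, all lower in CBP-ifKO, where 0.329% of all genes were called. These included Fosb at -4.57 (SE 0.56), Fos at -3.18 (SE 0.52), Junb at -2.28 (SE 0.21) and Nr4a1 at -2.09 (SE 0.36). In PTZ45, 16 of 18 targets were lower in CBP-ifKO than in Control, where 2.82% of all genes were called lower, 4 were so of 17 with an adjusted p in Sal and 8 of 16 in PTZ0, where 2.04% and 6.68% of all genes were called in either direction. The count in Sal was 2 without any one of Control Sal replicates 2 and 3 and CBP-ifKO Sal replicate 1, and that in PTZ0 was 5 without Control PTZ0 replicate 1. Without the 5 choroid plexus libraries these counts were 2 and 4, and that in PTZ45 was 15. Over all treatments 15 of 18 were lower, where 11.5% of all genes were, among them the neuropeptide genes Penk (-1.36, SE 0.10) and Pdyn (-1.14, SE 0.12). The list was chosen with earlier results of these data known, so that its counts are not independent evidence of its direction.

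**Figure D3:**
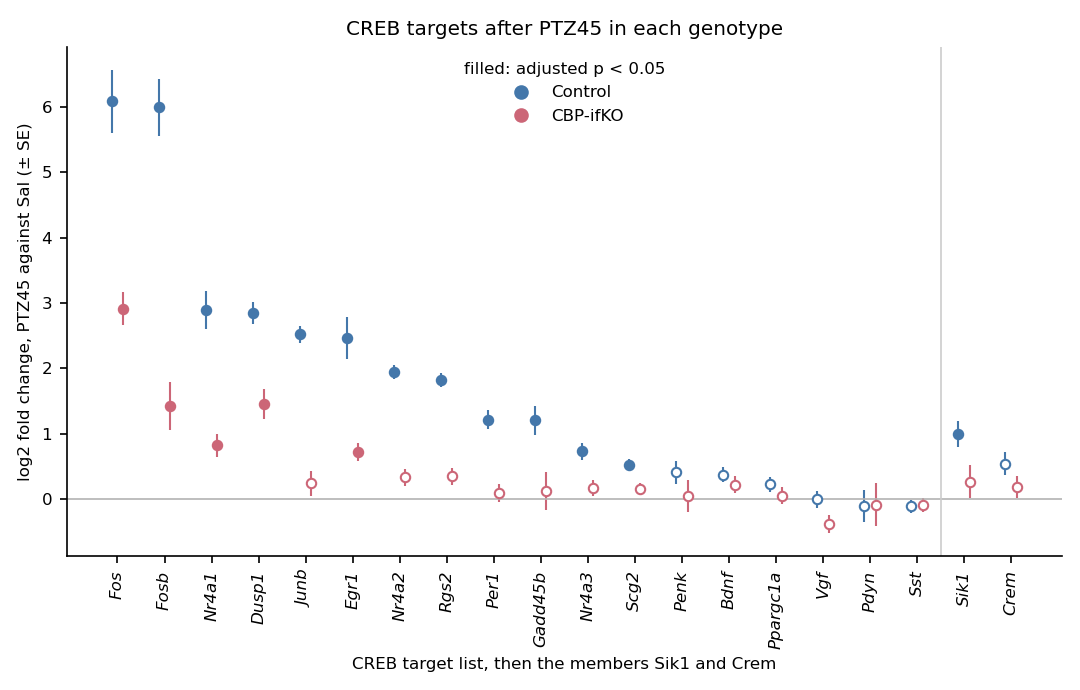
Log2 fold change of PTZ45 against Sal (y axis, bars are SE) in Control (blue) and CBP-ifKO (red) for the 18 CREB targets, ordered by the Control value, and for Sik1 and Crem at the right, filled where the adjusted p was under 0.05. For Fos, the Control point is at 6.08 and the CBP-ifKO point at 2.91, while Sik1 is at 0.99 and 0.26.

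Upstream of the axis, the CREB kinase genes Camk4, Camkk1 and Camkk2 were lower in CBP-ifKO in each treatment. Camk4, the kinase that phosphorylates CREB in the nucleus, had 868 ± 35.2 normalized counts in Control Sal and 639 ± 38.2 in CBP-ifKO Sal (SD, n = 3 each). Its log2 difference was -0.45 in Sal (SE 0.10, adjusted p = 0.00073), -0.49 in PTZ0 (SE 0.08) and -0.63 in PTZ45 (SE 0.12), all called. Camkk2, which activates Camk4, was lower by 0.62, 0.67 and 0.73 on that scale, and fell from 1610.4 ± 67.3 normalized counts in Control Sal to 1052 ± 110 in CBP-ifKO Sal. Camkk1, the other activating kinase, had log2 differences of -0.50, -0.48 and -0.48. In PTZ45 the values of each of the 3 genes were lower in CBP-ifKO without overlap, as were those of 18.3% of all genes. The list of 9 CREB kinases had 3 genes called lower in Sal, 4 in PTZ0 and 3 in PTZ45, and 0 higher. Beside them, 2.04%, 6.68% and 3.07% of all genes were called in either direction.

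Of the 9 CREB kinases listed, 5 were called lower and 1 higher over all treatments, where 11.5% of all genes were called lower and 7.76% higher. The lower ones included Camk2g (-0.15, SE 0.03), and the higher one was Rps6ka1 (0.25, SE 0.09), a kinase of the MAPK pathway. The call of Rps6ka1 was lost without any one of Control Sal replicates 1, 2 and 3, CBP-ifKO Sal replicate 1, Control PTZ0 replicate 3, Control PTZ45 replicate 1 and CBP-ifKO PTZ45 replicate 2. None of the 9 was called in PTZ45 against Sal in either genotype, in DESeq2. With the 5 choroid plexus libraries left out, 4 were called lower and 0 higher over all treatments, and 1 in place of 3 was called lower in Sal, where 2.04% of all genes were called in the fit with every library. In the same samples, 4 of 4 CA1 pyramidal markers were lower in CBP-ifKO over all treatments (median -0.46), as were 2 of 4 markers of CA3 and CA2 (median -0.31) and 2 of 6 of interneurons (median -0.15), while 1 of 4 general excitatory markers was higher and 0 lower (median 0.12). Of the other lists with a call, 1 of 4 dentate granule markers was higher and 1 lower, and 1 of 4 astrocyte markers and 1 of 6 endothelial and mural markers were lower. The summed CA1 level was 3579 to 4277 normalized counts in CBP-ifKO Sal and 5086 to 5732 in Control Sal, and 0 of the 4 were at 0 in any library. Sst is both an interneuron marker and a listed CREB target, so its lower level (-0.28, SE 0.06) counts in both. The part of these markers in the genotype differences of the kinases, of the CREB targets and of the lists that follow was not tested.

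The list of cAMP and protein kinase A genes, which holds adenylyl cyclases and kinase subunits, had no call for PTZ45 against Sal in either genotype. Over all treatments 8 of its 14 genes were lower in CBP-ifKO and 0 higher, beside 11.5% and 7.76% of all genes, as with the adenylyl cyclases Adcy8 (-0.34, SE 0.07) and Adcy5 (-0.30, SE 0.05) and the regulatory subunit Prkar1b (-0.19, SE 0.04). The count was 5 without Control Sal replicate 3 and 4 without the 5 choroid plexus libraries.

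Among 15 regulators of Crtc and Sik proteins, 7 were lower and 2 higher in CBP-ifKO over all treatments, beside 11.5% and 7.76% of all genes, and 4 lower and 1 higher without the 5 choroid plexus libraries. The lower ones held the 14-3-3 genes Ywhaq (-0.26, SE 0.06) and Ywhab (-0.18, SE 0.03), whose proteins retain phosphorylated coactivators in the cytoplasm, and the calcineurin subunit Ppp3r1 (-0.25, SE 0.03). The higher ones were Strada (0.25, SE 0.06) and Stradb (0.18, SE 0.06), partners of the kinase Stk11 that activates the salt-inducible kinases, and 1 of them was called without Control PTZ0 replicate 2 or Control PTZ45 replicate 2. The only call of this list under PTZ was Ywhae, higher in Control PTZ45 against PTZ0 (0.22, SE 0.06, adjusted p = 0.0318), which edgeR and the fit of all libraries did not call. Without Control PTZ45 replicate 1 the list had 3 calls there, and without any one of the other 4 libraries, or without the choroid plexus libraries, it had 0.

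Of the class IIa histone deacetylases, which salt-inducible kinases phosphorylate, Hdac9 (-0.38, SE 0.05), Hdac5 (-0.33, SE 0.06) and Hdac4 (-0.14, SE 0.05) were lower in CBP-ifKO over all treatments, 3 of the 7 genes in a list that also held Mef2 factors. Without CBP-ifKO Sal replicate 2, 5 were called, and with any other library left out 2 to 4 were. Hdac9 had 804 ± 37.9 normalized counts in Control Sal and 655 ± 72.0 in CBP-ifKO Sal. Of 10 related bZIP genes, 9 had an adjusted p, and 1 was called lower, Crebrf (-0.18, SE 0.04), and 0 higher. These shares also stand beside 11.5% of all genes called lower and 7.76% higher.

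**Figure D4:**
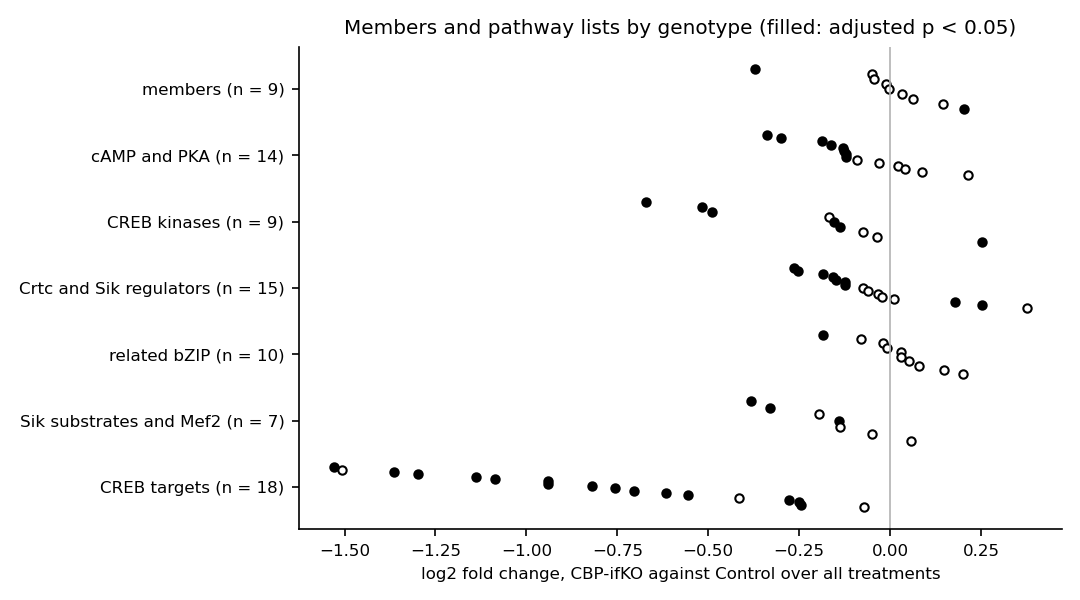
Log2 fold change of CBP-ifKO against Control over all treatments (x axis) for each gene (points) of the members and the 6 lists, filled where the adjusted p was under 0.05. Of the members 2 of 9 are filled, on opposite sides of 0, and of the CREB targets 15 of 18, all below 0.

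The genes whose pattern over the 6 groups was most like that of Sik1 were Ciart, Plk2, Btg1, Eif4a1 and Errfi1, out of 13040 genes whose mean over the libraries was 50 normalized counts or more. Likeness was the root mean square difference of the group means, on the log2 scale and relative to Control Sal, over the 5 other groups, and it was 0.0502 for Ciart and 0.112 for Errfi1. In Control PTZ45, the deviation from Control Sal was 0.98 for Sik1 and 0.92 for Ciart, and in CBP-ifKO PTZ45 it was 0.12 and 0.05. For Crem, the 5 nearest were Gm37106, 4933407K13Rik, Gm45263, Gm21926 and Nipal2, with differences of 0.0637 to 0.0698. All 10 genes were picked by their values.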

How the data were processed

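The authors deposited raw counts per gene, whole numbers that were not normalized. Per the labels and methods, single-end reads were checked with FastQC 0.11.8, trimmed with Trim Galore 0.6.4, aligned with STAR 2.6.1 to GRCm38 (mm10), filtered at a mapping quality above 10 and counted on Ensembl exons with Rsubread. The use of strand is not given in the sources used here. Of 18 count columns, 1 resembles Control PTZ45 by name but fits none of the labelled samples, so it was left out and Control PTZ45 has n = 2.

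Each comparison was fitted over all genes by the two-sided Wald test of DESeq2 1.42.0 in R 4.3.3, with Benjamini-Hochberg adjustment and a threshold of 0.05, below which a gene was called. The script was tested on simulated data. Displayed values are counts divided by DESeq2 size factors over the 17 libraries. Alternatives were edgeR 4.0.16 (quasi-likelihood), TMM scaling, a count filter, 1 fit of all libraries, a replicate block, a GC correction and each library left out. Replicates are separate animals. Named were all members, Crebbp, Esr1, at most 4 called genes per list, direction and comparison, and the 5 genes most like Sik1 and Crem. Junb was also named for its CRE sequence, and Sst because it is both a CREB target and a marker. The members and lists were chosen with earlier results of these data known. Positions come from GENCODE M21, in which 99.6% of the identifiers were found.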

Additional observations from a re-analysis of the deposited data

Results flagged for a closer look

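The interaction test, which compares the response to PTZ between genotypes, called some CREB targets. Over Sal, 9 of 18 targets were called, where 0.329% of all genes were, led by Fosb (-4.57), Fos (-3.18), Junb (-2.28) and Nr4a1 (-2.09), as log2 interactions in DESeq2. Over PTZ0, 9 were called, where 0.423% of all genes were, led by Fosb (-5.08), Fos (-2.65), Junb (-2.46) and Nr4a1 (-1.93). Of the 9 members, 0 were called in either test, and whether targets and members differ was not tested. The list of targets was chosen with earlier results of these data known. Both tests share the PTZ45 libraries. Per the paper, the genotypes also differed in seizures, and the causes were not tested.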

How the results depend on the processing

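Of 1651 values of a member under an alternative, 33 lost a call, 4 gained one and 0 changed sign with a call, while 168 changed sign without a call in either setting. The number of members called in Control PTZ45 against Sal was 1. It was 2 with edgeR and with 1 fit of all libraries, 0 with the replicate block and 0 to 1 with a library left out. In Control PTZ45 against PTZ0 it was 1, and 0 with the replicate block, with or without GC correction. For CBP-ifKO against Control in PTZ45 it was 1, and 0 with edgeR, with the replicate block and with the block and GC correction, and 0 to 1 with a library left out. Over all treatments it was 2, and 1 with edgeR, with GC correction, with the block and GC correction and without the 5 choroid plexus libraries, 0 with the replicate block and 0 to 2 with a library left out. In the other 8 comparisons the count was 0 under every alternative that was run. With the block, Sik1 in Control PTZ45 against Sal was 1.05 (adjusted p = 0.226). Over all genes, the block moved the count of calls from 204 to 73 in Control PTZ45 against Sal, from 225 to 94 in Control PTZ45 against PTZ0, from 306 to 122, 852 to 410 and 468 to 102 by genotype in Sal, PTZ0 and PTZ45, and edgeR moved it from 58 to 4 in CBP-ifKO PTZ45 against Sal and from 306 to 157 by genotype in Sal. Without the 5 choroid plexus libraries it was 121 and 152 in the Control comparisons of PTZ45 with Sal and PTZ0, 38 (from 58) and 8 (from 23) in those of CBP-ifKO, 80, 160 and 223 by genotype in Sal, PTZ0 and PTZ45, 1870 (from 3606) over all treatments, and 36 (from 69) and 49 (from 82) for the interactions over Sal and PTZ0. With 1 library left out, the lowest and highest counts were 109 and 164 in Control PTZ45 against Sal, 133 and 499 against PTZ0, and 127 and 620, 327 and 913, and 153 and 365 by genotype in the same order of treatments. They were 16 and 92 in CBP-ifKO PTZ45 against Sal, 0 and 20 (from 3) in Control PTZ0 against Sal, 2 and 5 (from 4) in CBP-ifKO PTZ0 against Sal, and 38 and 66, and 50 and 79, for the interactions over Sal and PTZ0. With the GC correction, the count of calls over all genes in CBP-ifKO PTZ45 against Sal was 16 (from 58). With 1 fit of all libraries it was 614 and 785 by genotype in Sal and PTZ45. The block gave 8 (from 23) in CBP-ifKO PTZ45 against PTZ0. The shares of all genes called, which stand beside the members' counts, move with these. For the CREB targets called higher in CBP-ifKO PTZ45, it was 5 against Sal (1 with edgeR) and 5 against PTZ0 (8 with GC correction).

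The replicate numbers were not shown to pair the samples. Deviations of same-numbered libraries in different groups had correlations of -0.523 to 0.532 over 40 pairs (median -0.0606), and 15 of them were over 0.1, and the second Control PTZ45 library is numbered 2 by its sample title, used here, and 3 in its count column, so that a call lost under the block does not describe a weaker effect. Where a Control PTZ45 library was left out, the lone library left is assumed to vary like the other group. Sik1 had 47 raw counts in the shallowest library, so that depth limits its precision there. Counts over the pathway lists under these alternatives and the setting without the 5 choroid plexus libraries (summed markers above 5000 normalized counts) were added after the data were seen.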
